A study of Mus musculus with 10 samples.

Results

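The miR-106b~25 cluster encodes 3 microRNA hairpins, Mir106b, Mir93 and Mir25, inside the gene Mcm7, which codes for a subunit of the replicative DNA helicase. Its members were chosen by name as the 6 mature arms cut from these hairpins: miR-106b-5p, miR-106b-3p, miR-93-5p, miR-93-3p, miR-25-5p and miR-25-3p. All 6 were listed, among 1302 mature microRNAs and 2015 microRNA features in all. Small RNA had been counted in 10 libraries of splenic B-cells depleted of CD43-positive cells, from wt mice, from mice lacking the 3'RR (the regulatory region at the 3' end of the immunoglobulin heavy chain locus) and from Eµ-deficient mice, which lack the intronic enhancer of that locus. The cells were either non stimulated or stimulated with LPS (lipopolysaccharide, 5 µg per ml), and per the labels both kinds of culture lasted 2 days. The wt and 3'RR-deficient mice had 2 libraries in each condition and the Eµ-deficient mice 1, every library being a pool of 2 mice. The study's methods give a 129 background and adult animals of both sexes, and describe the resting cells as taken before stimulation. The effects of LPS and of culture therefore cannot be told apart if the small RNA followed those methods.

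MicroRNA hairpins are cut from a longer transcript by Drosha and then by Dicer, and of the resulting duplex one strand (the guide) usually stays in an Argonaute protein while the other is lost. Bases 2 to 8 of the guide, the seed, select the target messenger RNAs. The cluster is a paralogue of the miR-17~92 cluster, which is known for its role in lymphocyte survival and proliferation and is induced by MYC. In cultured B-cells LPS drives division and differentiation towards antibody secretion.

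The hairpins lie on the minus strand of chromosome 5 in GRCm38, all inside intron 13 (chr5:138165162-138165909, 748 bp) of the 15-exon Mcm7 transcript. In the direction of transcription Mir106b (chr5:138165737-138165818) comes first, followed by Mir93 (chr5:138165523-138165610) and Mir25 (chr5:138165321-138165404), over a span of 498 bp. The RefSeq sequences of the hairpins, read 5′ to 3′, are shown with both mature arms in capitals, since the counts described here are those of the arms:
Mir106b: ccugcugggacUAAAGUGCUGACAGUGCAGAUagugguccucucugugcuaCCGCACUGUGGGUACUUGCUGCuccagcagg
Mir93: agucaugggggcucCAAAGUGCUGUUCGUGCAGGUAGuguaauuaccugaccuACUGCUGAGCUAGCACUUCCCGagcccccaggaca
Mir25: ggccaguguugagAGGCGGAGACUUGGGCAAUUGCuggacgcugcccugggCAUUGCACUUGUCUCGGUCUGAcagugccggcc

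The mature arms are shown with the seed in capitals, together with the 3 microRNAs of miR-17~92 with which they are compared:
mmu-miR-106b-5p: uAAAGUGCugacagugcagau
mmu-miR-93-5p: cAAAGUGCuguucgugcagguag
mmu-miR-17-5p: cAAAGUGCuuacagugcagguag
mmu-miR-20a-5p: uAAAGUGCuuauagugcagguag
mmu-miR-25-3p: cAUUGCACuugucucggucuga
mmu-miR-92a-3p: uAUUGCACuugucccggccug
mmu-miR-106b-3p: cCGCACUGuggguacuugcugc
mmu-miR-93-3p: aCUGCUGAgcuagcacuucccg
mmu-miR-25-5p: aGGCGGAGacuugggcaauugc

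The seed of miR-106b-5p and miR-93-5p is the same, and is shared with miR-17-5p, miR-20a-5p, miR-106a-5p and miR-20b-5p. miR-25-3p has another seed, which it shares with miR-92a-3p, miR-363-3p and miR-32-5p. In RefSeq 7 mouse mature microRNAs carry the first of these seeds and 6 the second, whereas the seeds of miR-106b-3p, miR-93-3p and miR-25-5p are each found in 1. miR-106b-5p and miR-93-5p are identical at 16 of 21 positions, counted from the 5′ end. miR-106b-5p is identical to miR-17-5p and to miR-20a-5p at 18 of 21, and miR-25-3p to miR-92a-3p at 18 of 21. How reads that fit several of these sequences were assigned is not given in the sources used here, so values of such relatives are uncertain to that extent.

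The library totals ranged from 3482540 to 18144016 counts, of which microRNA features took 51.4% to 82.1%. Levels are given as CPM, microRNA counts brought to a common library size by TMM, the composition correction of edgeR. The second non-stimulated library of both wt and 3'RR-deficient mice stood apart. These were the shallowest 2 libraries, and within both genotypes the second library differed from the first along GC content, by 1.06 (wt) and 0.841 (3'RR-deficient) log2 units per 10% GC over 497 features, against -0.259 and -0.202 in the LPS libraries. The 5 B-lymphocyte microRNAs checked summed to 89743 to 255661 CPM without and 87972 to 154348 CPM with LPS, 2 of the 5 having a lower median with LPS. Among them the medians of miR-150-5p (47860 without and 9387 CPM with LPS) and miR-181a-5p (29560 and 8194 CPM) were lower with LPS. Those of miR-155-5p (6977 and 49070 CPM), miR-142a-5p (38810 and 47140 CPM) and miR-142a-3p (2770 and 4183 CPM) were higher. Both miR-142a arms overlapped between conditions, and the list had no common direction. The summed level of 10 microRNAs of erythroid, myeloid, stromal and endothelial cells ranged from 3201 to 14863 CPM without and from 344 to 5439 CPM with LPS, all 10 having a lower median with LPS. The highest sum of each condition was that of its Eµ-deficient library. Of these only miR-145a-5p was at 0 in any library. Their part in the results was not tested. A smaller share of B-cells and less RNA per cell cannot be told apart in such bulk samples.

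Of all microRNA counts the cluster held a share of 2.56% to 4.48%. miR-25-3p, the guide arm of Mir25, supplied 50% to 79.9% of the cluster's counts and was the 13th most abundant mature microRNA by mean CPM. miR-93-5p, the guide arm of Mir93, supplied 12.5% to 38.9% and came 25th. miR-106b-3p and miR-106b-5p followed at ranks 67 and 70, although miR-106b-5p had the higher count in 7 of 10 libraries, while the passenger arms miR-25-5p and miR-93-3p came at 147 and 210. These ranks are of read counts, which ligation during library preparation can bias between sequences.

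The level of miR-25-3p was 23180 and 22970 CPM in the non-stimulated wt libraries (replicates 1 and 2) and 27240 and 25190 CPM in the 3'RR-deficient ones. The LPS libraries held 20180 and 22210 CPM for wt and 25650 and 20690 CPM for 3'RR-deficient mice. It was 15970 CPM without and 14560 CPM with LPS in Eµ-deficient cells. The 8 wt and 3'RR-deficient values overlapped between conditions and both Eµ-deficient values lay below them.

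The level of miR-93-5p was 9318 and 3878 CPM in non-stimulated wt cells and 11040 and 3931 CPM in 3'RR-deficient ones. In the wt LPS libraries it reached 14430 and 15550 CPM and in the 3'RR-deficient ones 8750 and 16090 CPM. In Eµ-deficient cells it was 5352 CPM without and 5618 CPM with LPS. Both second non-stimulated libraries were the lowest of all 10, and without them the remaining non-stimulated values still overlapped those with LPS.

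For miR-106b-5p, which has the same seed as miR-93-5p, the non-stimulated values were 1869 and 186 CPM in wt and 1710 and 285 CPM in 3'RR-deficient cells. The wt cells reached 2225 and 2610 CPM with LPS, and the 3'RR-deficient ones 1246 and 2809 CPM. The Eµ-deficient values were 803 CPM without and 1091 CPM with LPS. The second non-stimulated libraries were again the lowest, the second wt library lying 3.32 log2 units below the first and the second 3'RR-deficient one 2.58 below the first.

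The other arm of the same hairpin, miR-106b-3p, went the other way in these libraries. It was at 1112 and 2001 CPM in non-stimulated wt cells and at 1443 and 1915 CPM in 3'RR-deficient ones. With LPS it was at 1659 and 1890 CPM in wt, 1784 and 1637 CPM in 3'RR-deficient and 1062 CPM in Eµ-deficient cells, against 734 CPM in non-stimulated Eµ-deficient cells. The second non-stimulated libraries held the highest values of all 10.

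The passenger arm miR-25-5p was measured at 51.5 and 159 CPM in non-stimulated wt, 66.2 and 166 CPM in 3'RR-deficient and 44.6 CPM in Eµ-deficient cells. With LPS it was at 159 and 189 CPM in wt, 111 and 138 CPM in 3'RR-deficient and 93.5 CPM in Eµ-deficient cells. The first non-stimulated libraries of the 3 genotypes were the lowest 3 of the 10, and the second ones lay among the LPS values.

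The passenger arm miR-93-3p was the rarest member, at 43.5 and 19.7 CPM in non-stimulated wt, 55.9 and 29.0 CPM in 3'RR-deficient and 40.6 CPM in Eµ-deficient cells. With LPS it was at 57.3 and 79.5 CPM in wt, 37.8 and 35.9 CPM in 3'RR-deficient and 55.8 CPM in Eµ-deficient cells, and the conditions overlapped. The GC content of the arms was 42.9% for miR-106b-5p, 50% for miR-25-3p, 52.2% for miR-93-5p, 59.1% for both miR-93-3p and miR-25-5p, and 63.6% for miR-106b-3p. With a GC trend removed from every library none of the 6 passed for LPS in wt and 3'RR-deficient cells together, where 27% of 497 features did. Over all 3 genotypes miR-25-5p was the only member to pass (0.95 on the log2 scale, adjusted p = 0.045, edgeR's quasi-likelihood test), against 21.6% of 657 features.

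**Figure D1:**
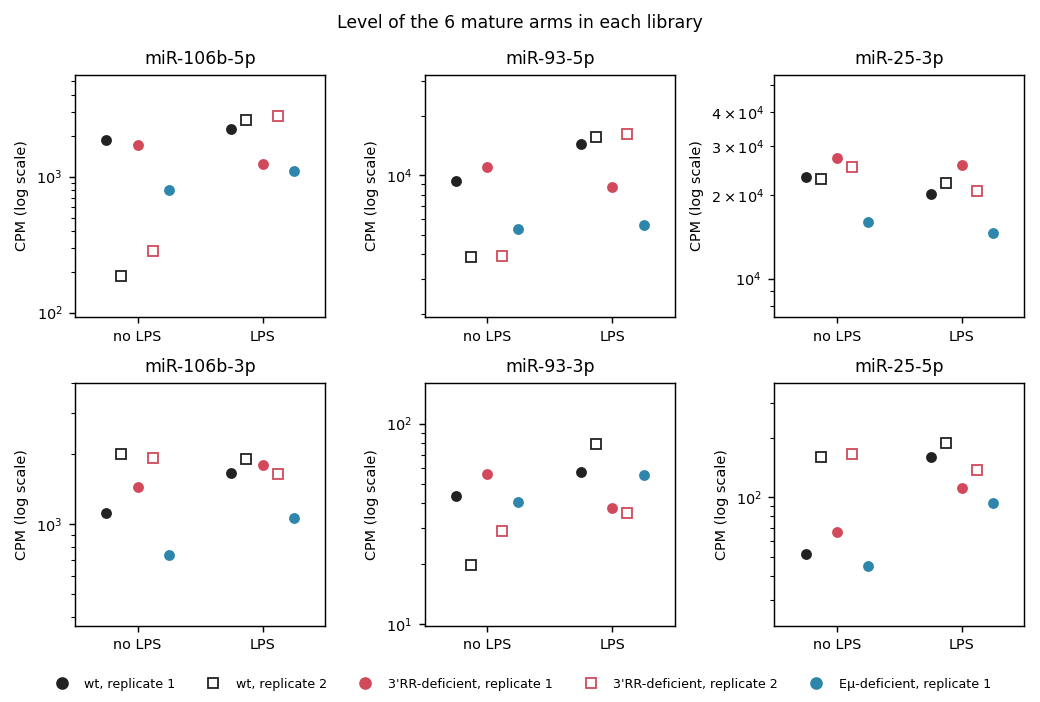
Level of each mature arm (CPM, log axis, a separate range per panel) in the 10 libraries, without LPS on the left and with LPS on the right of each panel. Colours mark genotypes, and filled circles and open squares mark replicates 1 and 2. miR-106b-5p and miR-93-5p are lowest in the open squares without LPS, whereas miR-25-3p stays between 14560 and 27240 CPM.

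Across the 10 libraries the log2 levels of miR-106b-5p and miR-93-5p moved together, with a Pearson r of 0.930 as a description, and r was 0.960 over the 8 libraries left without the second non-stimulated ones. The passenger arm miR-93-3p had an r of 0.787 with miR-106b-5p and 0.666 with miR-93-5p over 10 libraries, but 0.30 and 0.277 over 8. The r between miR-106b-3p and miR-25-5p was 0.868 (0.835 over 8). The libraries share differences in depth and composition, so these values are descriptions of the set of libraries.

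Several other correlations rested on the second non-stimulated libraries. Between both arms of Mir106b r was -0.152 over 10 libraries and 0.751 over 8. Between miR-25-3p and miR-106b-5p it was -0.0713 and 0.476, and between miR-25-3p and miR-93-5p 0.159 and 0.572. A joint pattern of miR-106b-5p, miR-93-5p and miR-25-3p was taken as the mean of their centred log2 CPM. It was most like that of miR-181a-1-3p (r = 0.990, 10 libraries), miR-340-5p (0.962), miR-872-5p (0.954), miR-30e-5p (0.952), miR-186-5p (0.944) and miR-425-5p (0.938). Over 8 libraries miR-181a-1-3p again came first and miR-872-5p second, while miR-340-5p came 9th and miR-186-5p 15th. This mean followed miR-93-5p (0.983 over 10 and over 8) and miR-106b-5p (0.969 and 0.963) more than miR-25-3p (0.153 and 0.677).

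The first comparison asked whether the cluster's arms changed with LPS. None of the 6 members passed an adjusted p of 0.05 (edgeR's quasi-likelihood test, Benjamini-Hochberg over all features tested) in wt and 3'RR-deficient cells together, 4 libraries against 4, where 21.8% of the 720 features tested passed (95 higher and 62 lower with LPS, and 65 of 132 higher when mature microRNAs alone were fitted, or 86 of 180 with all features of the table). None of the 6 reached an unadjusted p of 0.05 either, and with the DESeq2 Wald test none passed. The largest estimate with all 8 libraries, on the log2 scale, was that of miR-106b-5p, at 1.12 (95% confidence interval -0.41 to 2.66, SE 0.70, adjusted p = 0.278). For miR-93-5p it was 0.94 (SE 0.48, interval -0.11 to 2.00, adjusted p = 0.180). For miR-25-3p it was -0.15 (SE 0.38, interval -0.99 to 0.69, adjusted p = 0.803). All 3 of these intervals include 0, and that of miR-106b-5p is the widest of the 6 members.

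The estimates for the passenger arms and miR-106b-3p were smaller than those of miR-106b-5p and miR-93-5p. They were 0.46 for miR-93-3p (SE 0.49, adjusted p = 0.532), 0.37 for miR-25-5p (SE 0.50, adjusted p = 0.618) and 0.09 for miR-106b-3p (SE 0.40, adjusted p = 0.878). The median of the 6 members was 0.42, against 0.07 over all features tested, and fell to -0.16 when all small RNA classes entered the scaling and the test. It was 0.10 without the first non-stimulated wt library and 0.15 without the second wt LPS library. With both second non-stimulated libraries left out, miR-25-5p passed (1.21 on the log2 scale, adjusted p = 0.0368) and had the largest estimate, while the other 5 did not pass. Of all features 26.3% passed in this fit, so 1 of 6 is no more than the background. The estimate of miR-106b-5p was then 0.20 (adjusted p = 0.705) and that of miR-93-5p 0.31 (adjusted p = 0.546). Since the first non-stimulated libraries alone then stood for that condition, this call rests on 2 libraries.

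Within single genotypes no member passed. In wt 0.694% of features passed, and the members' log2 fold changes lay between -0.09 and 1.35 (median 0.94). In 3'RR-deficient cells 0.972% passed, and the members lay between -0.26 and 0.90 (median 0.02). Over all 3 genotypes, 5 libraries against 5, 18.8% of 988 features passed and the members lay between -0.15 and 0.99 (median 0.50). Without the second non-stimulated libraries miR-25-5p passed over all 3 genotypes (1.23 on the log2 scale, adjusted p = 0.00691), as did 27.2% of all features. All 3 of these comparisons share libraries with the one above.

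**Figure D2:**
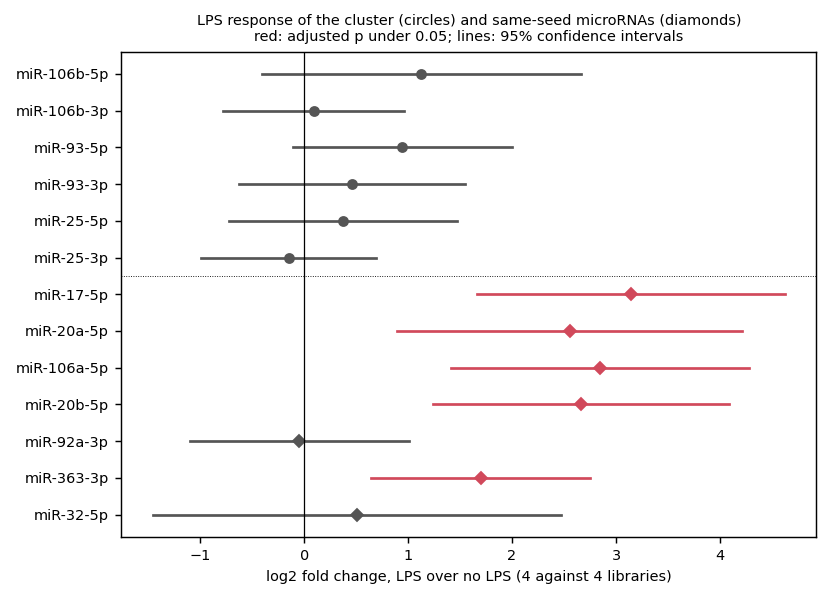
Log2 fold change with LPS (x axis) in wt and 3'RR-deficient cells, 4 libraries against 4, for the 6 members (circles) and 7 microRNAs that share a seed with them (diamonds). Lines are 95% confidence intervals and red marks an adjusted p under 0.05. All 6 member intervals include 0, while those of 5 of the 7 relatives lie above it.

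A list of 24 arms of miR-17~92, its X-linked paralogue cluster with miR-106a and the seed relative miR-32 was set beside the members. Of the 21 that could be tested, 11 rose with LPS and 0 fell in wt and 3'RR-deficient cells together. Of all 720 features 21.8% were called in the same fit, 95 higher and 62 lower. The median log2 fold change over the 21 was 2.44. When all small RNA classes were fitted 2 of the list rose, with 4.51% of all features called. miR-17-5p, a guide arm of miR-17~92, rose by 3.14 on the log2 scale (SE 0.67, adjusted p = 0.00967), from between 77.3 and 459 CPM without to between 1291 and 3025 CPM with LPS over all 10 libraries. miR-20a-5p rose by 2.55 (SE 0.75, adjusted p = 0.0355), from between 131 and 1215 CPM to between 2594 and 5233 CPM. Without both second non-stimulated libraries the rises were 2.26 and 1.59 (adjusted p = 0.000961 and 0.00607), and with all small RNA classes fitted neither passed (adjusted p = 0.124 and 0.283). miR-106a-5p, miR-20b-5p and miR-363-3p also rose, by 2.85, 2.66 and 1.70. The call of miR-20a-5p was lost on leaving out any of 5 single libraries (wt without LPS replicate 2, 3'RR-deficient without LPS replicate 2, both wt LPS replicates and 3'RR-deficient LPS replicate 1; adjusted p 0.0525 to 0.0794). Leaving out the first wt LPS library left 4 of the list, leaving out the second wt LPS, the first 3'RR-deficient LPS or the second wt non-stimulated library left 7 each, and the other 4 single libraries left 8 to 15.

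miR-92a-3p, the abundant seed relative of miR-25-3p, differed by -0.05 on the log2 scale (interval -1.10 to 1.01, adjusted p = 0.945). Its level ranged from 32360 to 91920 CPM without and from 43050 to 71270 CPM with LPS. The pair of abundant guides with this seed thus had intervals around 0. In the other seed group miR-17-5p and miR-20a-5p passed, whereas miR-106b-5p and miR-93-5p did not. Their intervals overlap, for example -0.41 to 2.66 for miR-106b-5p and 0.89 to 4.21 for miR-20a-5p. A difference between the clusters was not tested in this fit, and the members' calls depended on the replicate block, as given at the end.

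Because a ratio of counts within one library does not depend on scaling, the members were also set against these relatives in that way. The pairs were chosen after their values had been seen, so the ratios are a description and the p-values computed on them are not quoted. Of miR-106b-5p over miR-17-5p the log2 ratio lay between 1.02 and 2.20 in the 5 non-stimulated libraries and between -0.57 and 0.17 in the 5 LPS libraries, with a difference of -1.79 between the means. For miR-93-5p over miR-17-5p the ratio lay between 3.76 and 5.64 without and between 1.80 and 2.76 with LPS, a difference of -2.38. Against miR-20a-5p the differences were -1.45 for miR-106b-5p and -2.04 for miR-93-5p. None of these 4 ratios overlapped between conditions, but neither did the CPM of miR-17-5p or of miR-20a-5p alone. The share of all possible pairs without overlap was not counted, so the lack of overlap is not a result about the members. miR-106b-5p had more counts than miR-17-5p in every non-stimulated library and in 1 of the 5 LPS libraries.

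Without both second non-stimulated libraries the differences were -1.87 and -1.85 against miR-17-5p and -1.26 and -1.25 against miR-20a-5p, again with no overlap. The ratio of miR-25-3p to miR-92a-3p overlapped between conditions (difference -0.30), but not without those libraries (-0.75). Within the cluster, the mean log2 ratio of miR-106b-5p to miR-25-3p was 1.62 higher with LPS and that of miR-93-5p to miR-25-3p 1.03 higher, both with overlap. Without the second non-stimulated libraries these differences were 0.53 and 0.54. The ratio of miR-106b-5p to miR-93-5p differed by 0.59, and by -0.012 without them.

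**Figure D3:**
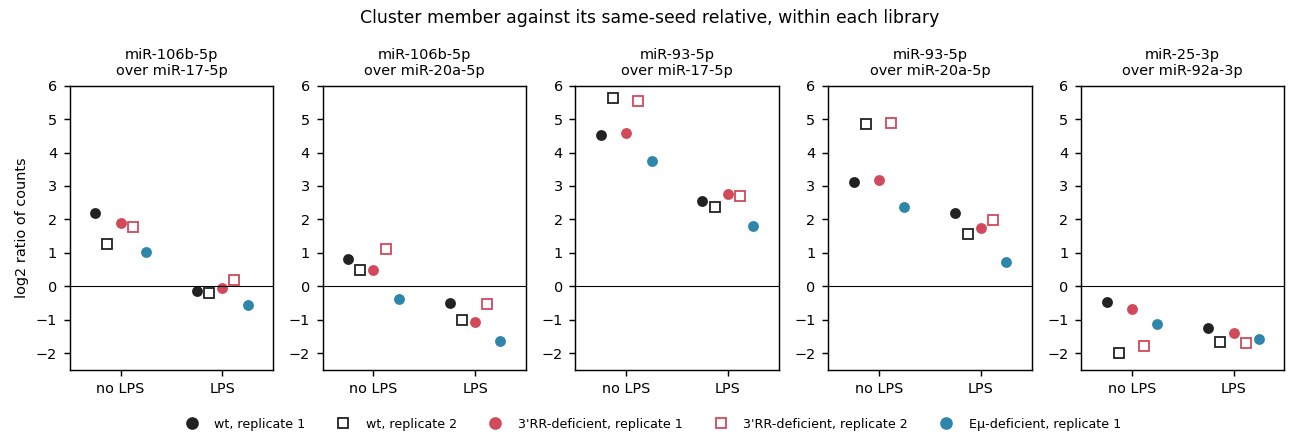
Log2 ratio of counts of a cluster member to a relative with the same seed, within each of the 10 libraries (y axis, the same range in all panels), without and with LPS. Colours mark genotypes and open squares replicate 2. In the first 4 panels the LPS points lie below those without LPS, and in the panel of miR-25-3p over miR-92a-3p they overlap.

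The balance of the arms was described by the share of the 3p arm in the counts of both. The part of ligation and of the GC difference between libraries in this share was not tested, so it is given as a balance of counts. In Mir106b the 3p share was 37.3% and 91.5% in non-stimulated wt cells, 45.8% and 87.0% in 3'RR-deficient and 47.8% in Eµ-deficient ones. With LPS it was 42.7% and 42.0% in wt, 58.9% and 36.8% in 3'RR-deficient and 49.3% in Eµ-deficient cells. Thus 8 libraries lay between 36.8% and 58.9% and the 2 second non-stimulated libraries far above them. The widest Wilson 95% interval extended 0.824 points to either side, which covers counting error only.

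Between conditions the Mir106b share differed by -15.9 points (61.9% ± 25.4 without and 46.0% ± 8.49 with LPS, SD, n = 5 each, exact permutation p = 0.278, 0.417 adjusted over 3 hairpins). Without the second non-stimulated libraries the difference turned to 2.33 points (exact permutation p = 0.786). Mir93 and Mir25 were one-sided. The 3p arm made up 0.223% to 0.983% of Mir93, with a difference of -0.084 points between conditions (exact permutation p = 0.548) and -0.066 points without the second non-stimulated libraries (exact permutation p = 0.679), and 99.2% to 99.8% of Mir25, with 99.6% ± 0.233 without and 99.3% ± 0.159 with LPS (SD, n = 5 each, exact permutation p = 0.0873, adjusted p = 0.262). Without the second non-stimulated libraries the Mir25 shares did not overlap, with a difference of -0.423 points (exact permutation p = 0.0357, the smallest possible, adjusted p = 0.107).

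**Figure D4:**
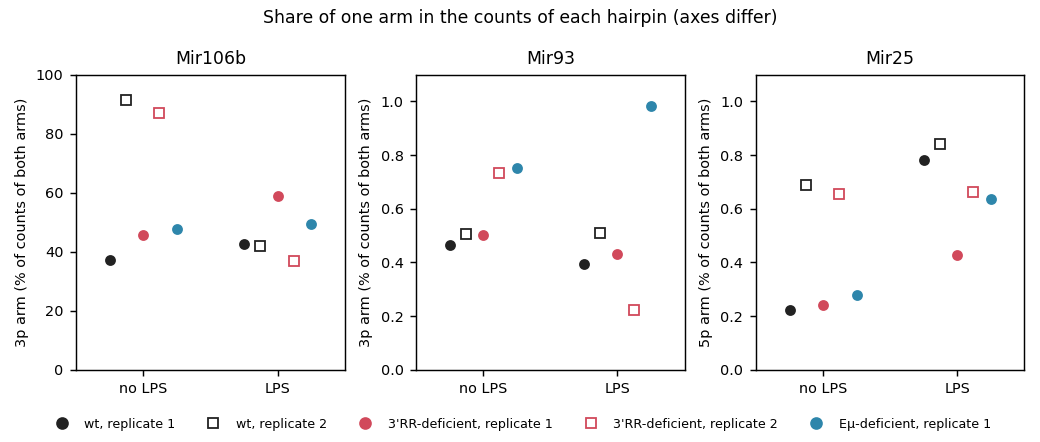
Share of the 3p arm (Mir106b, Mir93) or the 5p arm (Mir25) in the counts of both arms of a hairpin, in percent, by condition, with y axes that differ between panels. Colours mark genotypes and open squares replicate 2. The 2 open squares without LPS stand at 91.5% and 87.0% for Mir106b, far from the other 8 libraries.

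The table also listed the hairpin transcripts themselves, which are not members. How reads were divided between a hairpin and its arms is not given in the sources used here. Mir106b had 15 and 1 counts in non-stimulated wt cells and 10 and 15 in 3'RR-deficient ones, and with LPS 390 and 421 (wt) and 222 and 267 (3'RR-deficient). The Eµ-deficient libraries gave 0 and 262 counts. All LPS libraries lay above all non-stimulated ones.

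The Mir106b hairpin rose by 4.97 on the log2 scale in wt and 3'RR-deficient cells together (SE 0.74, adjusted p = 0.00261, edgeR's quasi-likelihood test), and passed under every alternative in which it was fitted. The means of CPM were 71.7-fold higher with LPS in wt and 14.8-fold higher in 3'RR-deficient cells, and the Eµ-deficient LPS library was at least 73.8-fold higher than a floor of 3 counts. These folds rest on few counts without LPS: the wt fold was 43.0 without the second non-stimulated library (1 count), and the 3'RR-deficient fold was 32.3 without the second and 9.60 without the first. Within 3'RR-deficient cells alone the rise of 3.92 did not pass (adjusted p = 0.0784), and the difference between the genotypes' responses had an interval of -4.88 to 0.51. The Mir93 hairpin had 22 and 0 (wt) and 23 and 5 (3'RR-deficient) counts without LPS and 43, 48, 24 and 65 with it, a log2 difference of 2.09 that did not pass (adjusted p = 0.0925). In Eµ-deficient cells it had 99 and 259 counts. Mir25 had 0 counts in 8 libraries, 4 in the first non-stimulated 3'RR-deficient library and 13 in the Eµ-deficient LPS library.

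**Figure D5:**
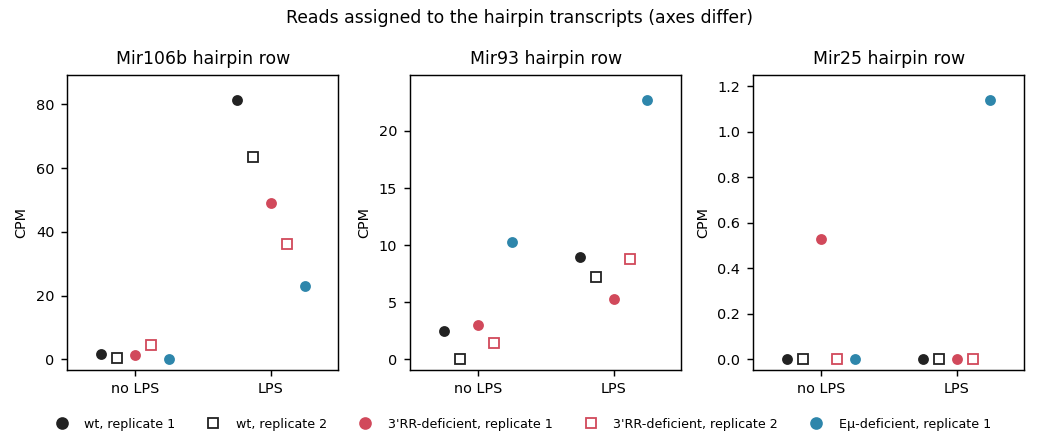
CPM of the hairpin transcripts of Mir106b, Mir93 and Mir25 (y axes differ) in each library, without and with LPS. Colours mark genotypes and open squares replicate 2. For Mir106b all 5 LPS libraries lie above all 5 others, at counts between 222 and 421 against 0 to 15.

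The second question was whether deletion of the 3'RR changed the cluster. Without LPS none of the 6 members passed, nor did any of 720 features (0% called, 9 at an unadjusted p under 0.05 and none by adjusted p, the smallest being 0.655, and 1 by the DESeq2 Wald test), and the members' log2 fold changes over wt lay between 0.16 and 0.57 (median 0.23). With LPS again 0% of features passed (15 at an unadjusted p under 0.05 and 2 by DESeq2), and the members lay between -0.86 and 0.17 (median -0.30). The lowest was miR-93-3p, with 36.9 ± 1.34 CPM in 3'RR-deficient and 68.4 ± 15.7 CPM in wt cells (SD, n = 2 each). Over both conditions 0.139% passed, and the members lay between -0.15 and 0.23. The difference of the LPS responses (3'RR-deficient minus wt) passed for 0% of features (5 at an unadjusted p under 0.05 and 0 by DESeq2), and the 6 members lay between -1.43 and -0.12. Their intervals were wide, for example -2.13 to 1.89 for miR-25-3p.

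The third question concerned the Eµ-deficient mice, with 1 library per condition. Over both conditions 1.62% of 988 features passed against wt, with none of the 6 members among them. The members' log2 fold changes were between -1.04 and -0.01, with a median of -0.78 against -0.17 over all features tested. Within a condition the ratios are given without a test. With LPS all 6 members lay below both wt libraries, as did 32.9% of the 988 features, by -1.42 (log2 ratio to the wt mean) for miR-93-5p, -1.15 for miR-106b-5p, -0.90 for miR-25-5p, -0.74 for miR-106b-3p, -0.54 for miR-25-3p and -0.30 for miR-93-3p. Scaled by total counts, 4 of the 6 lay below both, as did 23.4% of features, the ratio of miR-93-3p turned to 0.07 and that of miR-93-5p shrank to -1.08.

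Without LPS the Eµ-deficient library lay below both wt libraries for miR-25-5p (-1.24), miR-106b-3p (-1.08) and miR-25-3p (-0.53), and between them for the other 3 members. Of all features 24.1% lay below both, and with total count scaling 17.2% of features and 0 of the 6 members did. The microRNA share of the counts was 60.2% and 51.4% in the Eµ-deficient libraries, below each of the other 8. The 10 microRNAs of erythroid, myeloid, stromal and endothelial cells summed to 14863 CPM in the non-stimulated Eµ-deficient library, against 8514 and 3201 CPM in wt, and to 5439 CPM with LPS, against 663 and 344 CPM in wt. Of these 10, 6 lay above both wt libraries without LPS and 8 with LPS. The other 2 with LPS were the endothelial miR-126a-3p, below both wt libraries at 13.7 CPM (45.6 and 62.7 in wt), and miR-126a-5p, between them. The sum of the B-lymphocyte microRNAs was 89743 CPM in the non-stimulated Eµ-deficient library, the lowest without LPS. It was 154348 CPM with LPS, the highest with LPS, of which miR-155-5p made up 100700 CPM. This sum is not a measure of B-cell content: miR-142a-5p alone was at 177500 and 7357 CPM in the non-stimulated wt libraries (replicates 1 and 2). Of the 5 B-lymphocyte microRNAs, 1 lay above and 2 below both wt libraries without LPS, and 2 above and 2 below with LPS. The part of these differences in the Eµ-deficient values was not tested.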

How the data were processed

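The authors deposited 1 table of whole-number read counts per small RNA feature and library, not normalized. Library preparation used NextFlex V3 reagents and, per the labels, 17 PCR cycles, and the submitters' processing notes name cutadapt 1.2.1, Bowtie2 and mm10. The counting program and the treatment of multiply matching reads are not given in the sources used here. The paper names no test for small RNA. Counts of the microRNA class were fitted with edgeR 4.0.16 in R 4.3.3 (TMM scaling, filterByExpr by group, two-sided quasi-likelihood F-test, Benjamini-Hochberg adjustment over all features tested, threshold 0.05). The 8 wt and 3'RR-deficient libraries were fitted with group means for comparisons of single groups and for the difference of LPS responses. An additive model of genotype and stimulation on the same 8 served LPS in both genotypes together and genotype over both conditions. An additive fit of 10 libraries served comparisons with Eµ-deficient cells. Whether replicates came from separate cultures on separate days is not stated, so p-values measure the spread between these libraries. Arm shares were tested with exact permutation tests (scipy 1.17.1). Count ratios, with 2 added to each count, are descriptions: the same test was run on them, but the pairs were chosen after their values were seen, so its p-values are not quoted. Named were the members, their hairpins, the 24 relatives and the 6 microRNAs of most similar pattern. The members and lists were chosen with earlier results of these data known. Only the edgeR test of LPS in wt and 3'RR-deficient cells together was tried on simulated counts, which held no GC trend and no shift between replicates. Alternatives (DESeq2 1.42.0, scaling, filters, replicate block, GC trend, libraries left out) are given at the end. Sequences are from RefSeq (GRCm38.p6).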

Additional observations from a re-analysis of the deposited data

Results flagged for a closer look

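Of 18 groups of 5 libraries checked for a library far from the others, 1 held such a value, and chance alone gives about 1 in 20. Among the 5 LPS libraries miR-106b-3p was lowest in Eµ-deficient cells (1062 CPM, against 1637 to 1890 CPM in the other 4), the gap to the nearest library taking 0.759 of the whole range on the log2 scale, above Dixon's 95% value of 0.710. The same genotype was also lowest without LPS, at 734 CPM against 1112 to 2001 CPM. With 1 Eµ-deficient library per condition, genotype and library cannot be told apart.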

How the results depend on the processing

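Replicate numbers pair the libraries by nothing in the labels. The differences of replicate 2 from 1 correlated at 0.726 between the genotypes without LPS and 0.148 with LPS, but at -0.0884 (wt) and -0.248 (3'RR-deficient) between conditions. With the replicate number as a block no member passed, and a crossed block, chosen after seeing the data, called 83 features but no member for LPS in 3'RR-deficient cells. With a replicate block within culture condition the members called for LPS were 3 in wt (25.3% of all features), 1 in 3'RR-deficient cells (25.4%), 2 in both together (46.7%; miR-106b-5p at 1.73, adjusted p = 6.41e-06, and miR-93-5p at 1.08, adjusted p = 0.000564) and 2 over all 3 genotypes (37%), and 2 passed in Eµ-deficient against wt (10.6%). With the GC trend removed as well, 4, 2, 4 and 5 passed for LPS, against 28%, 24.9%, 43.5% and 33.5% of all features. GC trend removal alone gave 1 over all 3 genotypes (21.6%). Without both second non-stimulated libraries 1 passed in both together (26.3%) and 1 over all 3 genotypes (27.2%). Other settings left the count of members called at 0. Over all alternatives, the count of all features called moved more: 5 for LPS in wt (0 to 182, the highest with the replicate block within culture condition), 7 in 3'RR-deficient cells (0 to 183, likewise), 157 in both together (71 to 336, likewise), 186 over all 3 genotypes (107 to 374), 16 for Eµ-deficient against wt (1 to 156) and 1 for 3'RR-deficient against wt over both conditions (0 to 7). The lowest for both together was without the second wt LPS library and that for Eµ-deficient without its LPS library.

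Log2 fold changes of LPS in wt and 3'RR-deficient cells together that changed sign were these. miR-106b-3p went to -0.16 under total count scaling, -0.41 with all features of the table and -0.057 with mature microRNAs alone. miR-93-3p went to -0.26 and miR-25-5p to -0.055 with all features, and miR-93-3p to -0.12 without both second non-stimulated libraries. Leaving out single libraries, miR-106b-3p went to between -0.28 and 0.29 and miR-25-5p to between -0.14 and 0.73. miR-92a-3p rose above 0 to 0.0025 with no filter, 0.051 with other libraries, 0.10 with either block, 0.39 with the GC trend removed, 0.42 with trend and block and 0.65 without both second libraries, and lay between -0.48 and 0.38 on leaving out single libraries. The 3p share of Mir106b turned to 2.33 points and the ratio of miR-106b-5p to miR-93-5p to -0.012 without both second non-stimulated libraries. Under total count scaling the Eµ-deficient log2 ratios to wt with LPS were -0.80 for miR-106b-5p, -0.40 for miR-106b-3p, -1.08 for miR-93-5p, 0.073 for miR-93-3p, -0.55 for miR-25-5p and -0.20 for miR-25-3p, which was -0.33 without LPS. The cause of these changes was not tested.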
